A study of Mus musculus with 42 samples.

Results

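Active-mark histone methylation writers and erasers were followed through the 2-cell and 4-cell stages of the mouse embryo. The set was chosen by name and holds 9 genes, Kmt2a, Kmt2c, Kmt2e, Kdm5a, Kdm5b, Kdm4a, Kdm4c, Setd2 and Dot1l, of the 15737 genes whose symbol stood once in the table. The study asked how metabolism, in particular the cofactor NAD+, controls histone acetylation and the first transcription of the embryonic genome, and its RNA-seq samples numbered 18 in 9 groups of 2. All embryos were ICR, from parents 6 to 8 weeks old, and were collected 34 h after hCG (early 2-cell), 48 h (late 2-cell) or 58 h (4-cell). The early 2-cell embryos and the late 2-cell and 4-cell controls were labelled wild-type and untreated, and per the study's methods the control medium held 0.05% DMSO. Other embryos collected at both later stages had been given FK866 (0.01 µM) or FK866 together with NMN (10 µM). FK866 inhibits NAMPT, the enzyme that recycles nicotinamide into NMN, and NMN is the precursor of NAD+ downstream of that block. Further embryos collected at the late 2-cell stage had been given TSA (10 nM), an inhibitor of class I and II histone deacetylases, or were depleted of Sirt1. Per the study, FK866 was given to zygotes, and TSA treatment ran from the early 2-cell to the 4-cell stage. Sirt1 encodes an NAD+-dependent deacetylase. The depletion combined siRNA with SIRT1 antibody and Trim21 mRNA injected into zygotes. A scrambled siRNA with Trim21 mRNA was the injected control of the methods, and no column carries it as a group of its own. Each library was a pool of 3 embryos.

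Histone methylation at active genes is written and erased by dedicated enzymes. KMT2 (MLL) proteins methylate H3K4, KDM5 proteins remove that methylation, SETD2 trimethylates H3K36 in gene bodies, KDM4 proteins demethylate H3K9 and H3K36, and DOT1L methylates H3K79. In the early mouse embryo broad H3K4me3 domains inherited from the oocyte are removed at about the time the genome is activated, and KDM5 demethylases are known to take part. KMT2E belongs to the KMT2 family by sequence but is regarded as catalytically inactive, and it binds H3K4me3 through a PHD finger.

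The deposited table held 1 value per gene and group, in FPKM (fragments scaled to exon length and to the mapped reads of the library), with no value per sample. In 7 columns the values were sums of 2 libraries, which were separated from the whole reads behind them, and a single library was found in the column headed 4-cell FK866 and in that headed 4-cell FK866-NMN. Library totals ran from 3169677 to 10003481 reads, and the library with the larger total is called A and the other B. Values below are FPKM per library, and differences are log2 ratios of (FPKM per library + 1), which understate the change of low genes. A gene was tested if either column reached 1 FPKM per library, and was called past 2-fold when the log2 ratio exceeded 1 in size. A test over the separated libraries was added after the data had been seen: limma with a trended prior was fitted on log2(FPKM + 1) of all 16 libraries, with 1 mean per column and 7 residual degrees of freedom, on the 11622 genes whose reads were separated in every column. A single-library column is there assumed to vary like the others, and p-values are Benjamini-Hochberg adjusted over the genes tested in a comparison. Nothing states that the libraries came from separate litters, so the p-values measure the spread between these libraries. That spread is 1 residual variance per gene, pooled over the 7 columns with 2 libraries. A p-value thus also depends on columns outside its comparison. "Rose" and "fell" are used of members past 2-fold with an adjusted p below 0.05. Library pairs of 1 column correlated at r = 0.73 to 0.87 across genes, except late 2-cell FK866-NMN at 0.42. The reads of the members in both libraries had separate 95% Poisson intervals in 44 of 63 gene and column pairs (69.8%, against 70.1% over all genes at 1 FPKM or more). Counting intervals therefore cover counting error only, which was smaller than the spread between libraries.

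Headers and the value lists published with the study named 5 of the columns differently. The late 2-cell columns of control, FK866 and FK866-NMN embryos matched their headers, and the early 2-cell column, which the lists do not cover, was read by its header. By the lists, the column headed late 2-cell TSA held the 4-cell control (84 of 84 listed genes equal within 0.001%, against 12 in the next best column), that headed late 2-cell Sirt1 held 4-cell FK866 (84 of 84), and that headed 4-cell control held 4-cell FK866-NMN (84 of 84). The signs of listed genes placed TSA in the column headed 4-cell FK866 (1203 of 1203, against 1096 for the next best column). The column headed late 2-cell TSA itself matched 546 of them. The signs placed Sirt1 depletion in that headed 4-cell FK866-NMN (773 of 821, against 703 for the next best column). The column headed late 2-cell Sirt1 itself matched 442. The 12 genes of the 2-cell list (Zscan4 cluster, Zfp352, Usp17l genes, Tdpoz4) summed to 18.6 FPKM in the column headed late 2-cell TSA and 34.2 in that headed late 2-cell Sirt1, against 492 in the late 2-cell control, while that headed 4-cell FK866 held 287 and that headed 4-cell FK866-NMN held 371. Sirt1, the target of the depletion, stood at 86.6 and 66.2 FPKM in the late 2-cell control libraries and at 32.4 and 73.1 in the column headed late 2-cell Sirt1, so the groups overlapped. It stood at 7.61 in the single library headed 4-cell FK866 and at 11.3 in that headed 4-cell FK866-NMN. Cumulus and granulosa markers were low in every column: of the 5 present, 0 or 1 reached 1 FPKM per library, with a summed level of 0 to 0.965 in 7 columns and of 8.39 and 2.91, nearly all Cyp19a1, in the single-library columns. Columns in conflict are therefore reported after the others and under both readings.

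The members lie on chromosomes 1 to 10 and are long genes, with 5782 bases (Kdm4a) to 20291 bases (Kmt2c) of annotated exon, all 9 above the median of 2863 bases. In GRCm38, Kdm5b spans chr1:134560171-134635285, Kdm4c chr4:74242497-74405860, Kdm4a chr4:118136957-118180043, Kmt2e chr5:23434441-23504235, Kmt2c chr5:25271798-25498783, Kdm5a chr6:120364124-120444574, Kmt2a chr9:44803355-44881296, Setd2 chr9:110532597-110618633 and Dot1l chr10:80755206-80795461. RefSeq promoter windows (GRCm38.p6) were found for 7 of the 9 members, with 8 windows in all; Kmt2e and Kdm5a had no entry. Promoters are shown for Kdm5b, Kdm4c and Setd2, 3 of the 4 members that rose together from the early to the late 2-cell stage. Each line gives the 120 bases from 150 to 31 bases before a start, 5′ to 3′ on the gene's plus strand, none of it in an annotated exon. The positions are chr1:134560028-134560147 for Kdm5b, chr4:74242347-74242466 and chr4:74251729-74251848 for the upstream and downstream starts of Kdm4c, and chr9:110532447-110532566 for Setd2. Capitals mark matches on either strand to the GC box GGGCGG, the CCAAT box CCAAT, the TATA box TATAAA, the E-box CACGTG or the homeobox site TAATCC bound by bicoid-type factors.
Kdm5b: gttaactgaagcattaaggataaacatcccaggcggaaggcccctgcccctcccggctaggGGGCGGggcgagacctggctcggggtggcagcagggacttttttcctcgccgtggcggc
Kdm4c, upstream start: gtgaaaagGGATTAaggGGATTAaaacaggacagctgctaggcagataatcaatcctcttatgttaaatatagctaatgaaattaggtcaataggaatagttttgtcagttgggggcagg
Kdm4c, downstream start: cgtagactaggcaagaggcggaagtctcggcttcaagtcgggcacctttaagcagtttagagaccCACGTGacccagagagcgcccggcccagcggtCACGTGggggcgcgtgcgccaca
Setd2: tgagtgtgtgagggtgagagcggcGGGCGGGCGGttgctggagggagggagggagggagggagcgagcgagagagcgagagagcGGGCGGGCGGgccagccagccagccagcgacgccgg
These promoters did not share a motif set. Over the 250 bases before the start, Kdm5b held 1 GC box, 13 CpG and 54.4% GC, and Setd2 held 7 overlapping or separate GC boxes, 31 CpG and 76.0% GC. The upstream start of Kdm4c had 0 CpG, 39.6% GC and 2 TAATCC sites, which 6.25% of all 32851 windows hold. Its downstream start had 19 CpG, 60.4% GC and 2 E-boxes, a motif present in 6.02% of windows. The GC box occurred in 32.7%, the CCAAT box in 33.8% and the TATA box in 12.4% of windows, and the median window had 6 CpG and 52.4% GC. The FPKM values do not separate transcripts from the 2 starts of Kdm4c. The other windows, of Kmt2a, Kmt2c and Dot1l, were also rich in CpG (29, 48 and 44), and that of Kdm4a had 12 CpG and 1 CCAAT box.

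From the early to the late 2-cell stage the erasers Kdm5b, Kdm4c and Kdm5a and the H3K36 methyltransferase Setd2 rose, and no member fell past 2-fold. The median log2 ratio of the 9 members was 0.77, against 0.00 over the 9514 genes tested. The transcriptome changed widely over this step: 63.9% of tested genes passed 2-fold in either direction, 3060 higher and 3015 lower. With libraries also not overlapping, the share was 51.6%. The 4 of 7 tested members past 2-fold were thus a share near that of all genes, and what stood out was the size of the rise of Kdm5b and Kdm4c. By limma the same 4 members passed, against 21.3% of the 9006 genes in that test (971 higher, 944 lower). Both groups were collected as 2-cell embryos. Between the 2-cell and 4-cell stages, a change in the RNA of each cell and in the number of cells cannot be told apart. FPKM values are shares of a library, not amounts per embryo.

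Kdm5b, an H3K4 demethylase, went from nearly no reads to the higher ranks of the set. It had 79 and 18 reads in the early 2-cell libraries, or 0.846 and 0.234 FPKM, and 3297 and 2111 reads in the late 2-cell control, or 30.5 and 30.6 FPKM. Both late libraries lay far above both early ones and nearly equalled each other. The log2 ratio was 4.36 (4.09 to 4.68 over the 4 library pairs), the 98.3rd percentile of tested genes, and the ratio of levels was 56.6-fold. The limma adjusted p was 0.0001068, and it stayed between 7.323e-05 and 0.0006084 without any 1 of the 4 libraries. Its relative Kdm5a, which also removes H3K4 methylation, started higher. It stood at 3.98 and 3.26 FPKM in early embryos and at 14.9 and 13.0 in late ones, a log2 ratio of 1.70 (1.49 to 1.90; limma adjusted p = 0.02297). The call was lost without early library B (0.05534) or late library A (0.06195). The libraries did not overlap, and Kdm5a remained below Kdm5b at the late stage, whereas at the early stage it was above.

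Kdm4c, which demethylates H3K9 and H3K36, was close to absent before the late stage. Early 2-cell libraries held 1 read and 0 reads, and late 2-cell control libraries 366 and 227 reads, or 9.64 and 9.36 FPKM. The log2 ratio was 3.37 (3.33 to 3.41), at the 95.3rd percentile of tested genes. The limma adjusted p was 0.02397, and without any 1 of the 4 libraries it was 0.08449 to 0.1204. The pooled variance behind these values includes the late 2-cell FK866-NMN column, where the libraries of Kdm4c stood at 0 and 9.79 FPKM. From reads alone the log2 ratio was 9.16, with an exact binomial 95% interval of 6.67 to 14.46. Kdm4a, its paralogue, showed no such rise. It had 2.88 and 6.82 FPKM in early embryos and 0.769 and 4.48 in late ones, a log2 ratio of -0.69 with pairs from -2.14 to 0.50. The groups overlapped, so no direction could be given for Kdm4a; it passed 2-fold without late control library B (-1.73) or without early library A (-1.11).

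Setd2, which encodes the main enzyme of H3K36 trimethylation, rose from 12.6 and 11.6 FPKM to 38.6 and 27.5 FPKM, a log2 ratio of 1.38 (1.07 to 1.66). Early libraries lay close together and below both late ones. The limma adjusted p was 0.04912, and without any 1 of the 4 libraries it was 0.05302 to 0.1547. It was the highest member of the late 2-cell control, at a mean of 33.1 FPKM. Dot1l, which writes H3K79 methylation, had 8.05 and 13.0 FPKM early and 8.96 and 18.9 late. These values overlapped, with a log2 ratio of 0.37 (-0.49 to 1.13).

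Among the 3 KMT2 members, only Kmt2c was expressed at more than 1 FPKM on average at either stage. This writer of enhancer H3K4 monomethylation was the highest member in early embryos, at 18.3 and 16.5 FPKM, and reached 26.5 and 34.2 FPKM in the late control. Its libraries did not overlap, but the log2 ratio of 0.77 (0.51 to 1.01) was below 2-fold, and limma did not call it (adjusted p = 0.1782). Kmt2a, the founding MLL methyltransferase, had 28 and 1 reads in early libraries and 0 in both late control libraries, where 3 reads over both would be 0.0168 FPKM. Kmt2e had 35 and 38 reads early and 0 and 81 reads late, so the late libraries lay on either side of the early ones. Neither Kmt2a nor Kmt2e reached the filter.

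**Figure D1:**
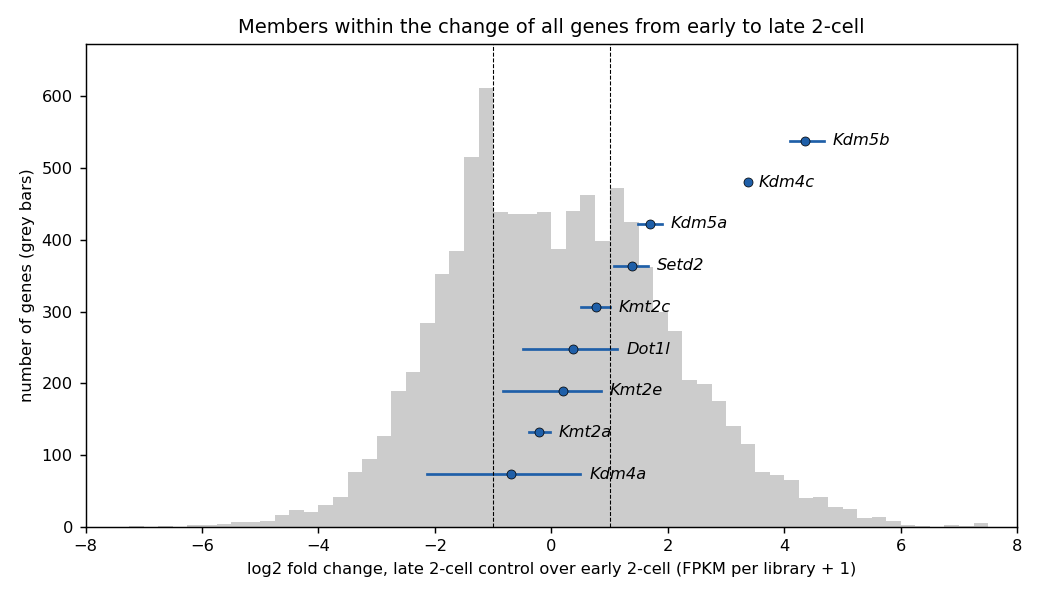
Log2 ratios of (FPKM per library + 1), late 2-cell control over early 2-cell. Grey bars count the 9514 tested genes in steps of 0.25, blue points are the members, blue lines their range over the 4 library pairs and dashed lines mark 2-fold; the heights of the points carry no value. Kdm5b (4.36) and Kdm4c (3.37) sit in the right tail, Kdm5a (1.70) and Setd2 (1.38) past the line, and the other 5 inside it.

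With FK866 the members at the late 2-cell stage stayed within 2-fold of the control in ratios of (FPKM per library + 1). By level alone Kdm4a differed more, at a mean of 1.21 FPKM against 2.63, with libraries overlapping. None of the 7 tested members passed 2-fold, against 38.1% of the 9022 genes tested (1636 higher, 1800 lower) and 20.3% past 2-fold with libraries not overlapping. The median log2 ratio was -0.04 over the members and -0.06 over all genes. Limma called 0 of 7 members, also 0 at an unadjusted p below 0.05, and 79 of 8550 genes (0.924%). Kdm5a gave the lowest ratio. It had 5.85 and 9.80 FPKM with FK866 against 14.9 and 13.0 in the control, and its log2 ratio was -0.76 (-1.21 to -0.38). Both FK866 libraries lay below both controls. Kdm5b, at 25.5 and 30.3 FPKM against 30.5 and 30.6, also did not overlap but differed by only -0.13 (-0.26 to -0.01). Setd2 had 31.5 and 32.6 FPKM with FK866, inside the range of its controls, with a log2 ratio of -0.04 (-0.29 to 0.24). Kdm4c had 11.4 and 7.92 FPKM, around its controls, with a log2 ratio of 0.02 (-0.25 to 0.26). For these 4 genes the library pairs stayed within 2-fold, except at the lower end for Kdm5a, which passed it without FK866 library B (-1.13).

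The remaining members overlapped between FK866 and control. Kmt2c had 26.6 and 41.0 FPKM with FK866, a log2 ratio of 0.15 (-0.35 to 0.61). Dot1l had 22.8 and 14.3 FPKM, a ratio of 0.39 (-0.38 to 1.26). Kdm4a had 1.83 and 0.596 FPKM, a ratio of -0.71 (-1.78 to 0.68), and passed 2-fold without FK866 library A (-1.18) or control library A (-1.31). Libraries of these 3 genes differed within a group by as much as the groups did. Kmt2a had 0 and 103 reads with FK866 and Kmt2e had 28 and 106, both under 1 FPKM on average.

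With FK866 and NMN together, Kdm4a and Setd2 were past 2-fold on the lower side of FK866 alone and of the control, but limma called neither. These comparisons share the FK866-NMN column, and this column had the lowest agreement of its libraries. Past 2-fold were 2 of 7 tested members against FK866, where 52.1% of 8605 genes were (1623 higher, 2862 lower), and 2 of 7 against the control, where 57.2% of 8639 genes were (1813 higher, 3128 lower). With libraries not overlapping, the shares of all genes were 26.3% and 30.7%. Limma called 0 of 7 members in both comparisons (1 and 2 at an unadjusted p below 0.05), against 4.20% and 7.09% of all genes. The median over all genes was shifted, by -0.24 against FK866 and by -0.35 against the control, and centred on it the genes split 2023 higher to 2319 lower and 2368 to 2315. The members' medians were -0.67 and -0.63.

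Kdm4a had 0 reads in both FK866-NMN libraries, where 3 reads over both would be 0.0376 FPKM. FK866 libraries had 95 and 28 reads, and control libraries 29 and 108. From the summed reads alone, the exact binomial 95% limits of the log2 ratio nearest to 0 were -4.73 against FK866 and -5.57 against the control. On the scale with pseudocount its log2 ratios were -1.15 and -1.86, and it no longer passed 2-fold without FK866 library A (-0.67) or control library B (-0.82). The limma adjusted p was 0.3526 against FK866 and 0.1793 against the control. Setd2 stood at 8.29 and 17.0 FPKM, below every FK866 and control library. Its log2 ratios were -1.27 (-1.85 to -0.85) against FK866 and -1.32 (-2.09 to -0.66) against the control. Without FK866-NMN library A they were -0.87 and -0.92, inside 2-fold. The limma adjusted p was 0.1145 (0.01484 to 0.2099 without any 1 of the 4 libraries) and 0.08396 (0.01225 to 0.1992), and the lowest value of each came without FK866-NMN library B. After centring, Setd2 alone passed 2-fold against FK866 and Kdm4a alone against the control.

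Kdm4c had 0 reads in 1 FK866-NMN library and 305 reads, 9.79 FPKM, in the other. The second library matched the level of control and FK866 embryos, so the log2 ratio of -0.85 against FK866 spanned -3.63 to 0.27 over pairs. Without that second library, B, the log2 ratios were -3.41 against FK866 and -3.39 against the control. They then rest on 1 library with 0 reads, and the spread within this column is lost, so no call is drawn from them. With all libraries limma did not call Kdm4c (adjusted p = 0.2922 against FK866 and 0.2536 against the control). Kmt2e had 0 reads in both FK866-NMN libraries against 28 and 106 with FK866, an exact 95% limit of -4.86 on the log2 ratio of reads, but was below the filter. Kmt2a had 0 reads in both as well, as in the control. Kmt2c, at 16.9 and 24.9 FPKM, lay below its FK866 libraries with a log2 ratio of -0.67 (-1.23 to -0.09). Kdm5b stood at 23.7 and 22.6 FPKM, a log2 ratio of -0.26 (-0.40 to -0.10) against FK866 and of -0.39 (-0.42 to -0.35) against the control. Kdm5a, at 6.10 and 11.2 FPKM, overlapped with FK866 (0.13, -0.61 to 0.83) and stayed below the control (-0.63, -1.16 to -0.20). Dot1l, at 18.2 and 5.37 FPKM, overlapped with both.

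**Figure D2:**
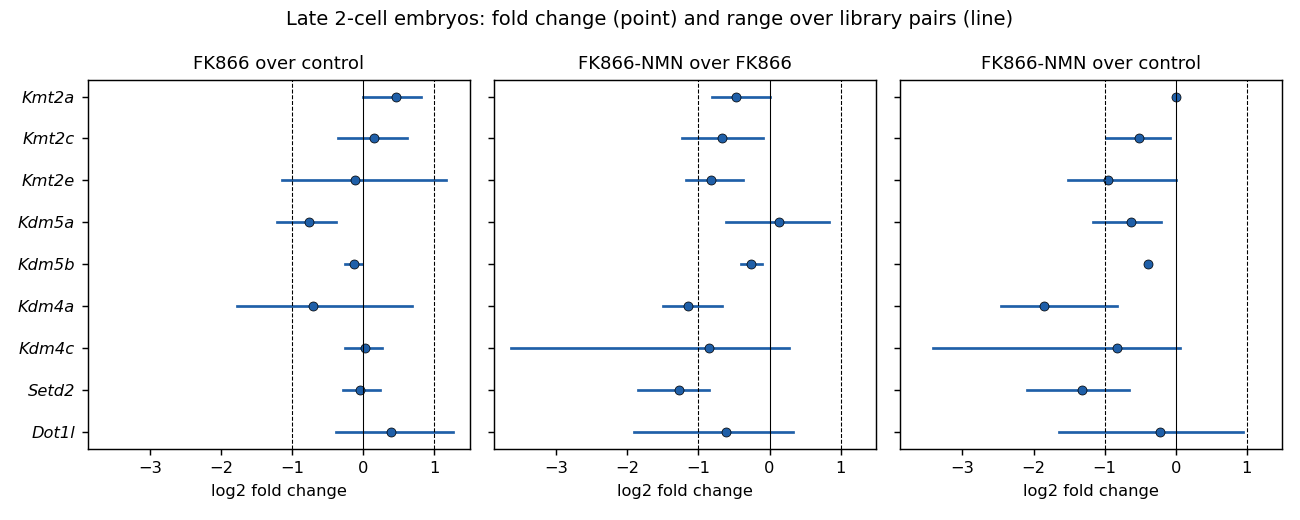
Log2 ratios of (FPKM per library + 1) of the 9 members among late 2-cell columns; points are column means, lines the range over the 4 library pairs, dashed lines 2-fold. With FK866 every point lies inside 2-fold, and with FK866-NMN the points of Kdm4a and Setd2 lie past it on the lower side in both comparisons; the long line of Kdm4c comes from the FK866-NMN library with 0 reads.

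The other 5 comparisons depend on how the columns are read, and each is given by the headers and then by the value lists. For 4-cell control over late 2-cell control, 2 of 7 tested members passed 2-fold by the headers (58.0% of all genes), Kmt2c and Dot1l, both lower. By the lists 3 of 7 did (64.5% of all genes), Kmt2c, Dot1l and Kdm4a, all lower. By the headers Dot1l did not pass without 4-cell library B (-0.62) or late 2-cell library B (-0.48). By the lists Kdm4a did not pass without late 2-cell library B (-0.52). For 4-cell FK866 over control, 4 of 8 passed by the headers (74.7% of all genes), Kmt2c higher (0.99 without control library B) and Kdm5b, Kdm4c and Setd2 lower. Centred on the median of all genes, Kmt2c no longer passed (0.66) and Kdm4a did, lower (-1.05). By the lists 3 of 8 did (34.6% of all genes), Kdm4a and Dot1l higher and Setd2 lower. For 4-cell FK866-NMN over FK866, Kdm5b and Setd2 were higher by the headers (2 of 8, 59.7% of all genes), and Setd2 by the lists (1 of 8, 26.3% of all genes). By the headers Kdm4a joined them after centring (1.07).

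For TSA over the late 2-cell control, Kmt2c, Kdm4a (-0.52 without control library B) and Dot1l were lower by the headers (3 of 7, 64.5% of all genes), and Kdm5b and Setd2 by the lists (2 of 8, 59.8% of all genes). For Sirt1 depletion over that control, Kmt2a was higher (0.27 without library A) and Kmt2c and Setd2 lower by the headers (3 of 8, 60.9% of all genes), and no member passed by the lists (0 of 8, 44.5% of all genes), where Kmt2e passed, higher, after centring (1.14). Comparisons within a stage share the control or FK866 column. The median over all genes lay between -0.44 and 0.42 by the headers and between -0.44 and 0.10 by the lists. Centring moved the split of all genes from 2007 higher and 3569 lower to 2714 and 2584 for TSA by the headers, which are the columns of 4-cell control by the lists. It moved the split from 2137 and 3212 to 2625 and 2584 for Sirt1 depletion by the headers, and from 1411 and 2430 to 1754 and 1902 by the lists.

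Limma called fewer members in these comparisons. For a column with 1 library, the spread was taken from other columns. By the headers, 4-cell FK866-NMN over FK866 set 1 library against 1, so the call of Kdm5b there rests on no spread of its own groups. By the headers it called Kmt2c lower in 4-cell control over late 2-cell control (11.4% of all genes called), Kdm5b lower in 4-cell FK866 over control (29.9%) and higher in FK866-NMN over FK866 (10.7%), Kmt2c lower with TSA (18.6%), and Kmt2c and Setd2 lower with Sirt1 depletion (14.1%). By the lists it called Kmt2c lower in 4-cell control over late 2-cell control (18.6%) and Kdm5b lower with TSA (12.5%). By the lists it called 0 of 8 members for 4-cell FK866 over control (0.213% of all genes), for FK866-NMN over FK866 (0.231%) and for Sirt1 depletion (1.82%). At an unadjusted p below 0.05 these 3 comparisons had 2, 1 and 0 members.

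Setd2 was past 2-fold lower with FK866, and past 2-fold higher with FK866-NMN than with FK866, at the 4-cell stage under both readings, but limma called none of these differences. By the lists it had 28.7 and 18.2 FPKM in the 4-cell control, 9.04 and 12.0 with FK866 and 21.2 and 25.5 with FK866-NMN. The FK866 libraries lay below all 4 others, which overlapped each other. The log2 ratio was -1.09 (-1.56 to -0.57) for FK866 over control and 1.08 (0.78 to 1.40) for FK866-NMN over FK866. The first was inside 2-fold without control library A (-0.74) or FK866 library A (-0.91), and the second without FK866 library A (0.91) or FK866-NMN library B (0.95). By the headers the control had 21.2 and 25.5 FPKM and the single libraries 8.96 with FK866 and 37.8 with FK866-NMN. The ratios were then -1.29 (-1.41 to -1.16) and 1.96, the latter with no library spread. For Sirt1 depletion by the headers, where limma called Setd2 (adjusted p = 0.03966), it was 0.05193 to 0.1379 without any 1 of the 4 libraries. In the late 2-cell columns, Setd2 with FK866 lay within its control range and with FK866-NMN below it.

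Kdm5b was low in 1 further library. The single library headed 4-cell FK866 had 176 reads, 2.27 FPKM, whereas all other libraries after the early 2-cell stage had 14.2 to 33.0 FPKM. By the headers this was a log2 ratio of -3.15 (-3.22 to -3.07) for FK866 at the 4-cell stage (limma adjusted p = 0.001693, and 0.004149 or 0.005912 without a control library). By the lists it was a log2 ratio of -3.27 (limma adjusted p = 0.00207, and 0.004949 or 0.005151 without a control library), in both library pairs, for TSA at the late 2-cell stage, and FK866 over control at the 4-cell stage was then 0.31 (-0.30 to 0.95), with overlap. Sirt1 was low in the same library (7.61 FPKM), as were Dppa3, at 762 FPKM against 1154 or more in the other columns, and Nanog, at 0 here and in the other single library. The part of these other differences in the value of Kdm5b was not tested.

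Kmt2c was at 6.56 to 11.2 FPKM in the 6 libraries headed late 2-cell TSA, late 2-cell Sirt1 and 4-cell control, which the lists name as the 4-cell columns. In the early 2-cell and the other late 2-cell libraries it was at 16.5 to 41.0 FPKM, and in the single-library columns at 23.2 and 29.1. Over the late 2-cell control, the 4-cell control had a log2 ratio of -1.46 (-1.72 to -1.18) by the headers and of -1.82 (-2.22 to -1.43) by the lists. The 4-cell control was thus lower than the late 2-cell control in Kmt2c under both readings, with limma adjusted p-values of 0.04119 and 0.01047. By the headers the call was lost without late 2-cell library B (0.09965), 4-cell library A (0.0651) or 4-cell library B (0.1207), and by the lists without 4-cell library A (0.05265). By the headers the 4-cell FK866 and FK866-NMN libraries, the single ones above, were not low. With Sirt1 depletion by the headers, Kmt2c had an adjusted p of 0.03015, lost without control library B (0.07774) or either library of the depletion (0.0746 and 0.06873). Dot1l had the same direction in both, but its libraries were far apart. The 4-cell control libraries had 8.68 and 3.56 FPKM by the headers and 0 and 4.40 FPKM by the lists, with log2 ratios of -1.07 (-2.12 to -0.04) and -2.22 (-4.31 to -0.88).

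Kdm4c was inside 2-fold, with 4-cell control libraries above those of the late 2-cell control under both readings, and past 2-fold after centring (1.11 by the headers and 1.36 by the lists). It had 16.4 and 20.8 FPKM by the headers and 23.8 and 14.0 by the lists, above the 9.64 and 9.36 of the late 2-cell control. The log2 ratios were 0.90 (0.71 to 1.07) and 0.92 (0.50 to 1.26). Kdm4a had 2.87 and 2.65 FPKM in the 4-cell control by the headers, inside its late 2-cell range, and 0.227 and 0.238, from 9 reads in each library, by the lists. By the lists it was higher with FK866 at the 4-cell stage, at 3.13 and 0.982 FPKM, a log2 ratio of 1.31 (0.68 to 1.75), and inside 2-fold without FK866 library A (0.69).

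Kdm5a stayed inside 2-fold in each of these comparisons, at 6.89 to 18.0 FPKM in the 8 libraries. Its largest ratio by size was -0.92 (-1.01 to -0.83), for Sirt1 depletion by the lists. Kmt2a reached 1 FPKM only in library A of the column headed late 2-cell Sirt1, with 332 reads or 1.99 FPKM, whereas the second library had 11 reads. Kmt2e was highest in the single library headed 4-cell FK866-NMN, at 193 reads or 2.68 FPKM, and had 2 reads and 0 reads in the column headed late 2-cell TSA.

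**Figure D3:**
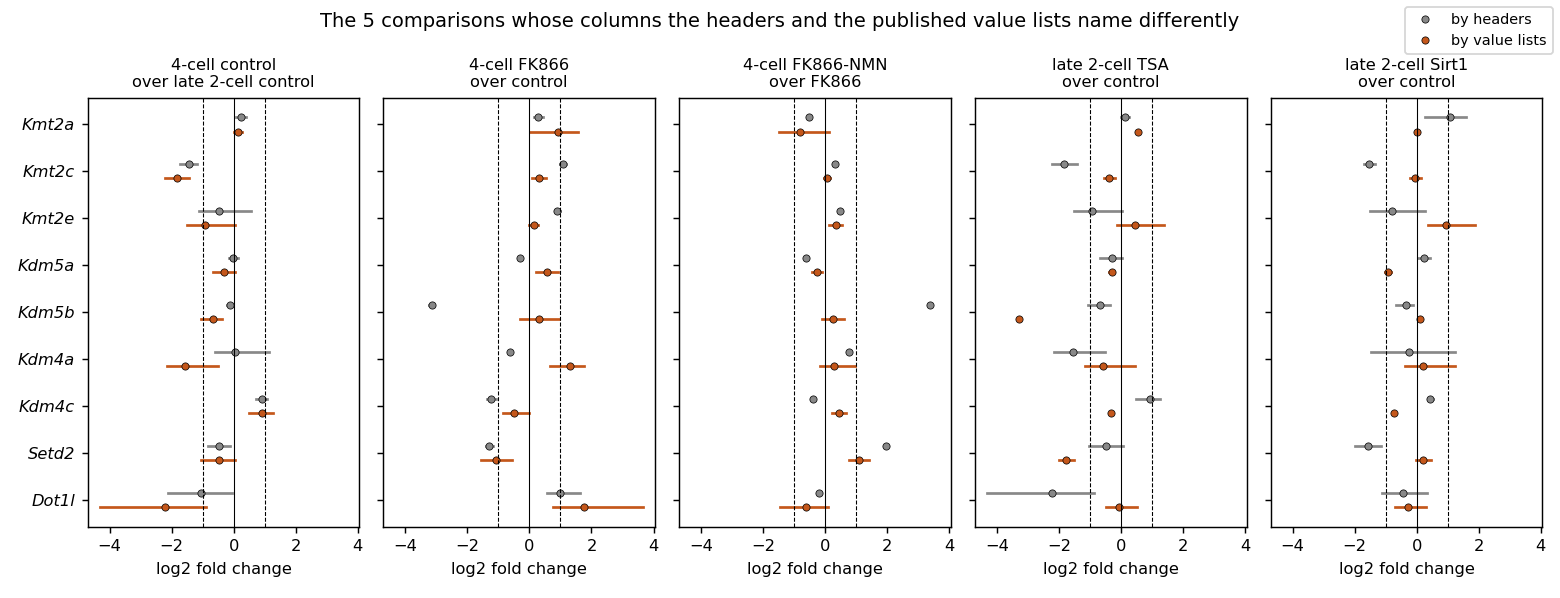
Log2 ratios of (FPKM per library + 1) of the 9 members in the 5 comparisons whose columns are named differently; grey points follow the headers and orange points the value lists, lines are ranges over library pairs (no line where both columns have 1 library) and dashed lines mark 2-fold. Setd2 keeps its side in FK866 over control and in FK866-NMN over FK866, while Kdm5b at -3.15 and 3.38 by the headers moves inside 2-fold there by the lists and to -3.27 for TSA.

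Across all 9 columns the members did not follow a common course. Each had a different order of levels, and the plot of all libraries shows neighbours in that order mostly overlapping. Kdm5b was lowest in early 2-cell (0.540 FPKM) and above 18 FPKM in 7 of the other 8 columns, whose libraries spanned 14.2 to 33.0 FPKM without a clear order. Kdm4c was lowest in early 2-cell (0.0152 FPKM) and highest in the columns headed late 2-cell TSA (18.9) and 4-cell control (18.6), which did not differ beyond their spread. Kdm5a ran from 3.62 FPKM in early 2-cell to 16.8 in the column headed late 2-cell Sirt1. Setd2 ran from 8.96 FPKM in the column headed 4-cell FK866 to 37.8 in that headed 4-cell FK866-NMN, each a single library. Kmt2c was highest with late 2-cell FK866 (33.8 FPKM) and lowest in the column headed late 2-cell TSA (7.87). Dot1l had the same extremes, at 18.5 and 2.20 FPKM. Kdm4a was highest in early 2-cell (4.85 FPKM), and the column means of Kmt2a and Kmt2e never exceeded 1.10 and 2.68 FPKM.

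**Figure D4:**
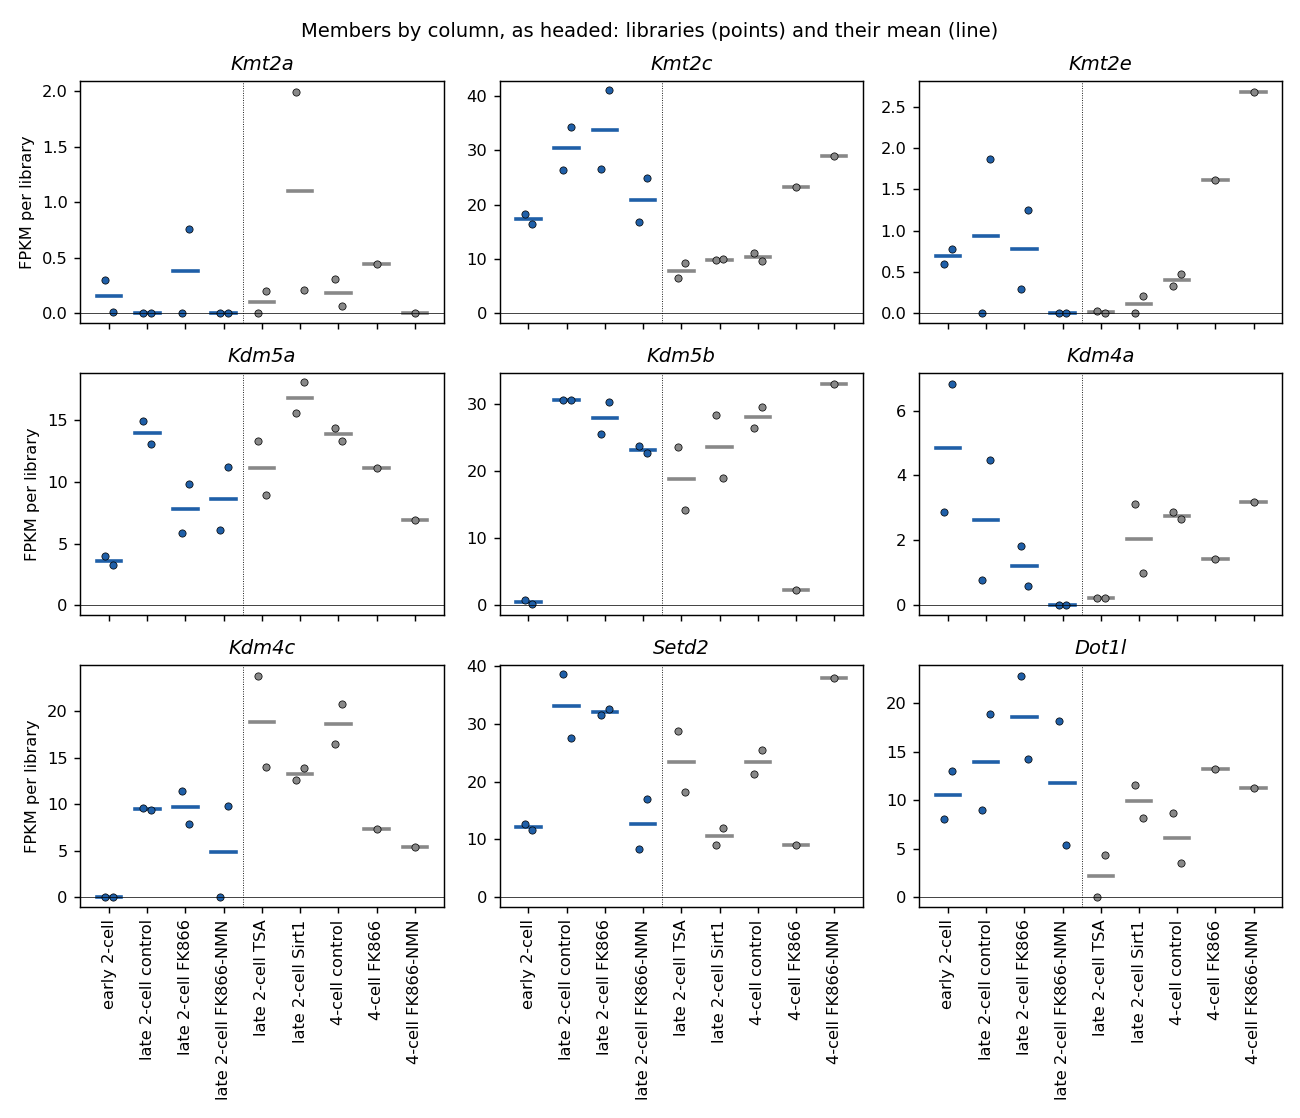
FPKM per library of each member in the 9 columns, named by their headers; points are libraries, lines their mean, and each panel has its own linear axis starting near 0. Blue columns left of the dotted line are those with no conflicting name found and grey columns those that the headers and the value lists name differently; Kdm5b and Kdm4c are near 0 in early 2-cell only among the blue columns, apart from 1 FK866-NMN library of Kdm4c.

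Over the 9 column means, on the log2 scale, Kdm5a and Kdm4c had r = 0.87, Kmt2c and Dot1l r = 0.84 and Kdm5b and Kdm4c r = 0.72, the highest of the 36 pairs, and Kmt2a and Setd2 r = -0.52, the lowest. These values are descriptions over 9 column means of 1 or 2 libraries each. Of 6782 genes at 1 FPKM or more in at least 5 columns, those most like the mean of the members' scaled profiles were Trib3 (r = 0.95), Aste1 (0.94) and Tceanc2 (0.93). The gene most like Kdm5b was Zscan5b (r = 0.99), that most like Kdm4c was Nf2 (0.98), that most like Kmt2c was Slc41a1 (0.98) and that most like Setd2 was B2m (0.96). The others were Abhd17a for Kdm5a (0.95), Rasd2 for Kmt2e (0.96), Bahd1 for Dot1l (0.94), Gm12397 for Kdm4a (0.92) and Rnu1b6 for Kmt2a (0.92).

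The surrounding machinery, a list of 59 further subunits, writers, erasers and readers of these marks, had 34 genes among the rows analysed. Those rows cover only chromosomes 1 to 11, and a listed gene without a row could not be followed here. Its absence does not mean that it was unexpressed. Shares of all genes likewise refer to the genes of these rows. From early to late 2-cell, 28 were tested, 3 were past 2-fold higher and 4 lower, with a median log2 ratio of -0.08, where 63.9% of all genes passed 2-fold. Those higher were readers: Brpf1, a scaffold of MOZ/MORF acetyltransferases, went from 4.10 to 20.4 FPKM (2.07), Morf4l1, which binds H3K36me3, from 7.54 to 17.0 (1.08), and Ing1, a PHD finger reader of H3K4me3, from 39.4 to 81.5 (1.03). None of these 3 overlapped between stages. The lower ones were led by Mllt3, the AF9 partner of DOT1L (87.9 to 26.1 FPKM, -1.71, early libraries not separated), Setmar (18.8 to 5.10, -1.70, with late libraries at 0 and 10.2) and Setd1b, a COMPASS H3K4 methyltransferase (4.76 to 1.15, -1.42). Of 11 tested H3K4 methyltransferases and subunits, 0 were higher and 1 lower.

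In late 2-cell embryos given FK866, 1 of 29 tested genes of this list was higher and 0 lower (median -0.04), against 38.1% of all genes past 2-fold. The 1 gene was Kdm4d, an H3K9 demethylase listed at 0 in both control libraries and at 2.07 and 0.989 FPKM with FK866. Kdm1a, a further H3K4 demethylase, had 8.66 and 8.91 FPKM with FK866 against 17.7 and 14.2 in the control; this gene was chosen after its values were seen. With FK866-NMN over FK866, 1 of 29 was higher, Brpf1 (33.9 against 15.2 FPKM, 1.11), and 10 were lower, against 52.1% of all genes. The lowest were Ing2 (-3.60), Setmar (-2.94, libraries overlapping) and Rbbp5, the core subunit shared by all KMT2 complexes (-2.46). Rbbp5 had 0.0301 and 0 FPKM with FK866-NMN against 6.25 and 2.94 with FK866, and Ing2 had 0.0391 and 0 against 6.28 and 16.5. Against the control 1 of 28 was higher, Paxip1 (1.22, libraries overlapping), and 10 lower, against 57.2% of all genes, again led by Ing2 (-3.36), Rbbp5 (-3.18) and Setmar (-2.61, libraries overlapping).

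In the comparisons whose columns are in conflict, the list gave 3 higher and 7 lower of 30 for 4-cell over late 2-cell control by the headers (58.0% of all genes) and 3 and 10 of 30 by the lists (64.5%). Mllt3 was lower in both (-3.73 and -4.13), as Dot1l was, and Wdr5, the WD40 subunit of KMT2 complexes, and Ing4 higher in both (1.15 and 1.44; 1.61 and 1.96). Kdm8 was also higher in both (1.99 and 1.05), with overlapping libraries by the lists, and further lower genes were Psip1 (-2.09) and Wdr82 (-1.87) by the headers and Taf3 (-3.79) and Setmar (-2.61, libraries overlapping) by the lists. For 4-cell FK866 over control there were 9 higher and 7 lower of 30 by the headers (74.7% of all genes), led by Mllt3 (4.94), Ing2 (2.74) and Wdr82 (1.63) and by Kdm1a (-3.77), Wdr5 (-2.68) and Kdm8 (-2.57). By the lists there were 2 higher and 1 lower of 29 (34.6% of all genes), Setmar (2.06) and Taf3 (1.29) and Smyd3 (-1.04). For FK866-NMN over FK866 there were 6 higher and 6 lower of 30 by the headers (59.7% of all genes), led by Kdm1a (3.01), Ing5 (2.84) and Kdm8 (2.29) and by Ing2 (-3.92), Ing4 (-3.13) and Setmar (-1.61). By the lists Taf3 (1.17) and Kdm8 (1.01) were higher and Setmar (-1.19) lower, where 26.3% of all genes passed.

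For TSA over control the list gave 3 higher and 10 lower of 30 by the headers (64.5% of all genes), from the columns already described as 4-cell control by the lists. By the lists it gave 3 higher and 8 lower of 29 (59.8% of all genes), with Ing4 (3.07), Ing2 (3.02) and Mllt3 (1.21) higher and Kdm1a (-3.22), the H3K36 methyltransferase Ash1l (-2.48) and Ing5 (-2.04) lower. Kdm1a stood at 0.825 FPKM in that single library, against 16.0 in the late 2-cell control. Of the H3K4 demethylases among the members, Kdm5b was low there too, whereas Kdm5a stood at 11.1 FPKM against 14.0 in the control, inside 2-fold. For Sirt1 depletion, Wdr5 (1.27) and Ing4 (1.06) were higher and 7 of 30 lower by the headers (60.9% of all genes), led by Mllt3 (-3.45), Taf3 (-2.50) and Psip1 (-2.32). By the lists Kdm8 (1.70) was higher and 4 of 29 lower (44.5% of all genes), led by Rbbp5 (-2.64), Setmar (-2.61, libraries overlapping) and the H3K4 methyltransferase Kmt2b (-2.25).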

How the data were processed

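RNA was sequenced from mouse embryos in 18 samples of 9 groups; 24 H3K27ac CUT&Tag samples were not used here. Per the labels and methods, the authors used Trim Galore for trimming, HISAT2 for alignment to mm10 and featureCounts for reads per gene (base calling: CASAVA 1.4), and deposited FPKM values in 1 column per group. The table, named for counts but holding FPKM, gave 15747 complete rows on chromosomes 1 to 11.

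Gene symbols were matched to GENCODE exon lengths (GRCm38) for 15360 genes. Multiplied by exon length, 97.6% to 97.8% of the values above 0 in each column fell on whole reads, which gave the library totals and each library's reads. Columns holding 2 libraries were divided by 2. The recovery was tested on simulated data. Ratios were log2(FPKM per library + 1), genes at 1 FPKM per library or more in either column were kept, and exact 95% intervals and a floor of 3 reads cover counting error only. These ratios carry no test. Added after the data were seen, limma 3.58.1 under R 4.3.3 (lmFit, eBayes with trend) was run on log2(FPKM + 1) of the 16 separated libraries, tested on simulated data, with adjusted p-values below 0.05 called. Libraries are called A (larger total) and B, with no link to a replicate number, and nothing states that they came from separate litters.

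All 9 members were named in each comparison, with the 3 largest rises and falls of the pathway list past 2-fold, the genes most like the members over 9 columns, and Sirt1; Nampt was not analysed here. Members, lists and motifs were chosen with earlier results of these data known. Alternatives were other pseudocounts (0.1 and 5), centring, no division by libraries, other filters (5 FPKM and none), leaving out a library, and the other reading of the columns. Intervals came from scipy 1.17.1, tables were handled with pandas 2.3.3 and numpy 2.4.6 under Python 3.11.15, and plots were drawn in matplotlib 3.10.9.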

Additional observations from a re-analysis of the deposited data

Results flagged for a closer look

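The first result was noted because every library pair moved one way at the late 2-cell stage and the opposite way at the 4-cell stage. It is the response of Kdm5a to FK866 with the columns read by the published value lists. At the late 2-cell stage the log2 ratio over control was -0.76 (-1.21 to -0.38), from 5.85 and 9.80 FPKM against 14.9 and 13.0. At the 4-cell stage it was 0.55 (0.21 to 0.94), from 15.5 and 18.0 FPKM against 13.3 and 8.96. The ratios differed by -1.31, late 2-cell minus 4-cell. With the columns read by their headers the 4-cell ratio was -0.29 (-0.34 to -0.24) and no such contrast appeared. By limma on the separated libraries the difference was -1.37, with an adjusted p of 0.5927. The second result is Kdm5b with the columns read by their headers, whose response to FK866 differed between the stages by 3.01 on the log2 scale in that test (adjusted p = 0.01595), from -0.13 at the late 2-cell stage and -3.15 at the 4-cell stage. It rests on the single library headed 4-cell FK866, and by the value lists, which place TSA embryos there, the adjusted p was 0.8009. The tests of the difference covered the members that passed the filter, all but Kmt2a by the headers and all but Kmt2e by the lists. They were adjusted over all genes tested.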

How the results depend on the processing

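The counts of members past 2-fold stayed within 1.5 times in all 9 comparisons with no filter or without division by libraries, and in 8 with a pseudocount of 0.1. They did so in 7 with centring, a filter of 5 FPKM or the other reading of the columns, and in 5 with a pseudocount of 5. Comparisons among the early 2-cell column and the late 2-cell control, FK866 and FK866-NMN columns have the same columns under both readings and could not change. Counts within 1.5 times of each other also do not mean the same members. For TSA, Kmt2c, Kdm4a and Dot1l passed by the headers, whereas Kdm5b and Setd2 passed by the lists. With a pseudocount of 0.1, FK866 over control at the late 2-cell stage gave 1 member (Kdm4a, -1.05) in place of 0. With a pseudocount of 5 the count was 1 for FK866-NMN over FK866, over control and for 4-cell over late 2-cell control, and 2 for 4-cell FK866 over control. Centring gave 1 for both FK866-NMN comparisons, as did the filter of 5 FPKM, and 4-cell FK866 over control kept its count of 4 with Kdm4a in place of Kmt2c. By the value lists the count was 1 for 4-cell FK866-NMN over FK866 and 0 for Sirt1 depletion, and the called ratios of Kdm5b for 4-cell FK866 (0.31) and of Setd2 for Sirt1 depletion (0.19) changed sign. Leaving out 1 library gave 4 to 5 members from early to late 2-cell, 0 to 1 for FK866 at the late 2-cell stage, 2 to 3 for FK866-NMN over FK866 and 1 to 4 over control. It gave 1 to 3 for 4-cell over late 2-cell control, 3 to 5 for 4-cell FK866, 2 to 4 for TSA and 2 to 4 for Sirt1 depletion. For 4-cell FK866-NMN over FK866 by the headers no library could be left out. The limma test gave 0 members for both FK866-NMN comparisons of the late 2-cell stage and 1 for 4-cell over late 2-cell control, 4-cell FK866 over control and TSA. Leaving out 1 library, it called 1 to 2 members from early to late 2-cell, 0 for late 2-cell FK866, 0 to 2 for both FK866-NMN comparisons, 0 to 1 for 4-cell over late 2-cell control, 1 for 4-cell FK866, 0 to 2 for TSA and 0 to 1 for Sirt1 depletion. No paired analysis was possible because the deposited columns carry no replicate numbers. The members with the fewest reads, Kmt2a, Kmt2e and Kdm4a, were limited by depth and by the spread between libraries.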
